A study of Mus musculus with 56 samples.

Results

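The Serpin family was described along the mouse male reproductive tract. Its members were taken by name, as every gene of the count table whose mouse symbol starts with Serpin, leaving out symbols that end in -ps, and 63 of 53379 genes met this rule. They comprise 25 genes of clade A (Serpina), 27 of clade B (Serpinb) and 11 of clades C to I. The RNA came from male C57BL/6 mice of 3 or 21 months, untreated and with no engineered allele named in the labels, and covered the testis, the efferent ductules that drain it, the epididymis in 4 stretches (initial segment, caput, corpus and cauda) and the vas deferens. Each of the 7 regions was represented by 4 libraries per age, 56 in all. By the study's methods each age was 4 mice, the organs of both sides of a mouse were combined, and fat and excess connective tissue were trimmed off.

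Serpins are proteins of a common fold that mostly block serine or cysteine proteases: the target cuts an exposed loop, the serpin springs into a more stable shape, and the protease stays trapped in the complex. Clade A members are mainly secreted, clade B members mainly stay inside the cell, and several members have no inhibitory activity and act as hormone carriers or as chaperones. In the male tract, proteases and their inhibitors meet in the acrosome, in the fluid that bathes maturing sperm and in the clotting and dissolving of the ejaculate.

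Libraries held between 11125279 and 20561967 counts. Several stood apart. Replicate 3 of the 3-month cauda had a summed level of 6 fibroblast markers of 9232 CPM (counts scaled to the library's total), against 2160 to 2427 in the other 3 libraries, and of 8 macrophage markers of 1440 against 313 to 329. In the 21-month efferent ductules, replicates 2 and 3 held the initial segment genes Adam28 (136 and 68.8 CPM) and Lcn8 (401 and 152 CPM), which reached at most 0.175 and 0.273 CPM in the other 2. Replicate 3 of the 3-month efferent ductules had 316 CPM over 10 germ cell markers against 75.7 to 89.3, and the single gene Gm42418 took 49.7% of the counts of replicate 2 of the 3-month caput. Levels of members are given in CPM scaled over all 56 libraries, as mean ± SD with n = 4 unless every library is listed. Multiples and log2 differences come from the scale of each fit and can differ slightly from ratios of these levels.

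Of the 63 members, 30 reached a mean of 1 CPM in at least 1 of the 14 groups of region and age, 18 reached 10 CPM and 7 reached 100 CPM. These 30 were 12 of clade A, 10 of clade B and 8 of clades C to I. No read was counted for 4 members (Serpinb11, Serpinb3c, Serpinb3d and Serpinb9e) and 1 to 9 reads in all libraries together for another 8. A minimum of 10 counts per fit left 48 members for the tests between regions at 3 months, 46 at 21 months, and between 30 and 42 for the tests of age within a region. Serpina3h and Serpinb10 are annotated as pseudogenes although their symbols do not end in -ps, and Serpina3h peaked at 1.13 ± 0.271 CPM.

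Most of the family output came from a handful of genes, and which genes these were changed with the region. Summed over members, the family level at 3 months was 338 ± 3.81 CPM in testis, 769.95 ± 39.97 in efferent ductules, 420.5 ± 70.4 in initial segment, 1710 ± 168 in caput, 4884 ± 118 in corpus, 6264 ± 1332 in cauda and 2720 ± 80.1 in vas deferens. The wide SD of the cauda came with its replicate 3, at 4280 CPM, the lowest of that group. At 21 months the sums were 345 ± 18.7, 825 ± 104, 345 ± 50.3, 1554 ± 90.3, 4013 ± 284, 6095 ± 342 and 2819 ± 412 CPM, in the same order of regions.

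Levels of different genes were compared per kilobase of annotated exons. In testis at 3 months Serpina5, the protein C inhibitor, led with 33.5 CPM per kb and 28.6% of the family sum per length. It was followed by Serpinb6a, a mostly intracellular inhibitor of cathepsin G, at 22.2 CPM per kb (29.3% of its exons overlap antisense genes, and the strand setting of the counts is not known), Serpina3a at 14.4, Serpina3g at 9.46 and Serping1 at 9.0. In efferent ductules Serping1, the C1 inhibitor of the complement and contact systems, reached 147 CPM per kb and 48.4% of the sum, ahead of the collagen chaperone Serpinh1 (HSP47) at 44.2, Serpinf1 (pigment epithelium-derived factor, without inhibitory activity) at 38.1 and the antichymotrypsin-like Serpina3n at 29.1. In the initial segment Serpinf2, the plasmin inhibitor α2-antiplasmin, stood at 53.2 CPM per kb (32.3%) and Serping1 at 50.2.

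From the caput onward a pair of neighbouring clade A genes took most of the sum. Serpina1f led in caput with 365.5 CPM per kb (59.7%), ahead of Serpina16 at 84.9. Serpina16 led in corpus with 1828 CPM per kb (73.0%) and in cauda with 1270 (49.8%), where Serpina1f reached 424 (16.9%) and 943 (36.9%). In vas deferens Serpina1f stood at 698 CPM per kb (78.9%) and Serpina16 at 27.3. Serpine2, the thrombin and plasminogen activator inhibitor known as protease nexin-1, was the fourth member by level in cauda at 67.5 CPM per kb. Of the 30 members that reached 1 CPM in a group, 24 had their highest CPM in the same region at both ages.

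**Figure D1:**
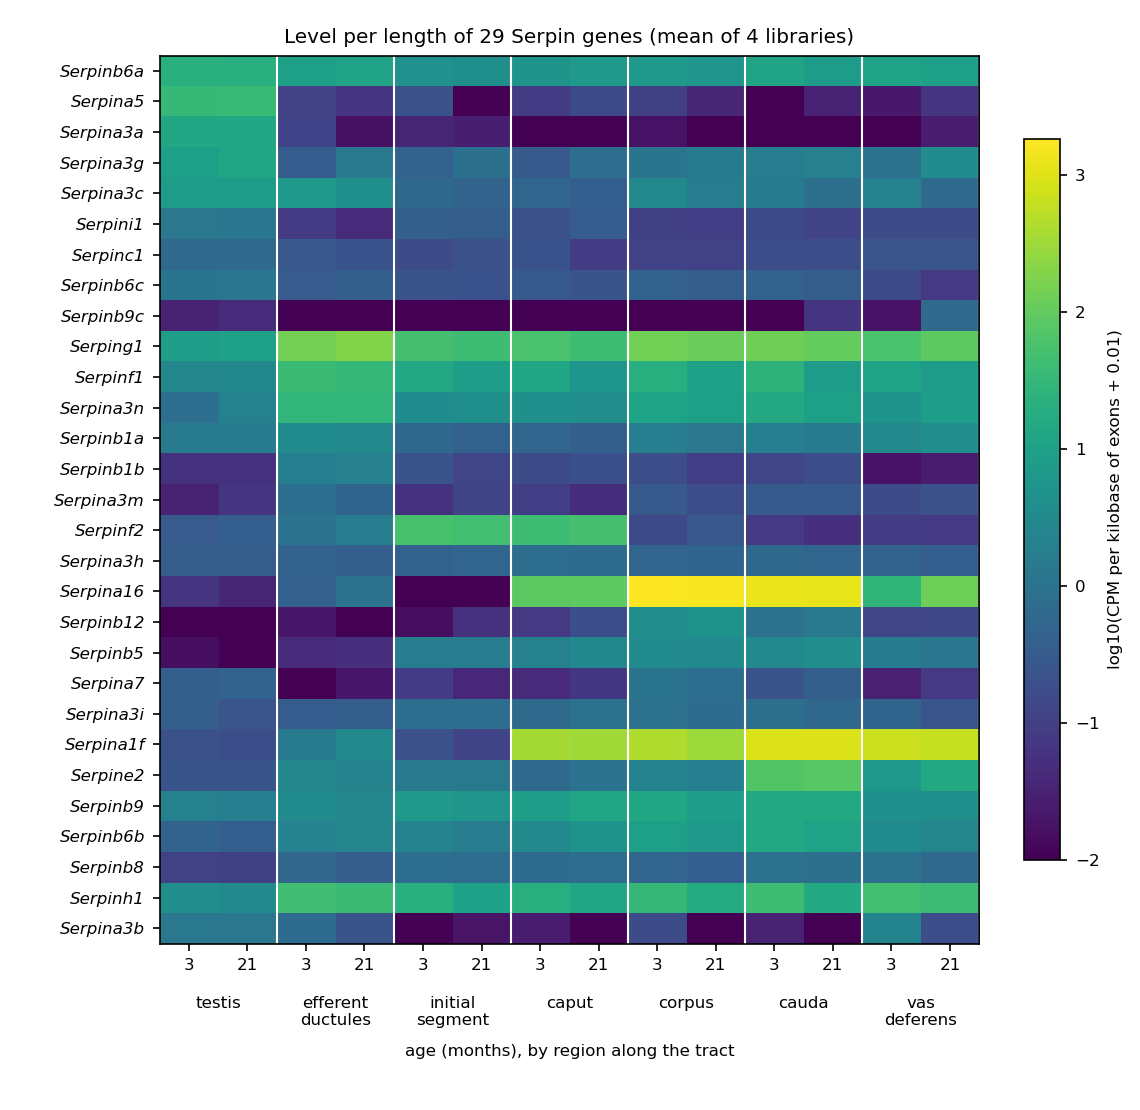
Level per length of 29 of the 30 members that reached 1 CPM in a group: rows are genes ordered by their top region at 3 months, columns are the 7 regions at 3 and 21 months, and colour is log10 of CPM per kilobase of exons plus 0.01 (mean of 4 libraries). The brightest cells are Serpina16 in corpus and cauda (1828 and 1270 CPM per kb at 3 months) and Serpina1f from caput to vas deferens.

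Both leading distal genes, Serpina16 and Serpina1f, lie side by side on the minus strand of chromosome 12, in a cluster that runs from 103614786 to 104414329 (GRCm38) and holds 24 of the 25 Serpina genes. The same cluster holds the leading testis members Serpina5 and Serpina3a, which are neighbours on the plus strand. Of its 24 genes, 11 reached 1 CPM in a group. Clade B genes sit in a cluster on chromosome 1 (106861173 to 107610484, 12 members, 3 of them at 1 CPM or more) and a cluster on chromosome 13 (32842092 to 34002794, 15 members, 7 at 1 CPM or more).

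The 250 bases before the start site are shown for these pairs, because both pairs lie in 1 cluster, the first with its peaks in corpus and cauda and the second with its peaks in testis. They are RefSeq promoters (build GRCm38.p6), written 5′ to 3′ on the strand of the gene. Capitals mark matches on either strand to AGAACA, the core letters bound by androgen and glucocorticoid receptors, and to TATAAA, the letters of the TATA box. The promoters are those of Serpina16 (chr12:103676763-103677012, minus strand), Serpina1f (chr12:103695530-103695779, minus strand), Serpina5 (chr12:104100863-104101112, plus strand) and Serpina3a (chr12:104112474-104112723, plus strand).
Serpina16: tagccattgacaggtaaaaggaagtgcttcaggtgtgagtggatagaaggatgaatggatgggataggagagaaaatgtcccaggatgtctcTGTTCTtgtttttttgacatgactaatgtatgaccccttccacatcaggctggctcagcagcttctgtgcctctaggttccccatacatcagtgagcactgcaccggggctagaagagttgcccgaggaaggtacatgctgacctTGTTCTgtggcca
Serpina1f: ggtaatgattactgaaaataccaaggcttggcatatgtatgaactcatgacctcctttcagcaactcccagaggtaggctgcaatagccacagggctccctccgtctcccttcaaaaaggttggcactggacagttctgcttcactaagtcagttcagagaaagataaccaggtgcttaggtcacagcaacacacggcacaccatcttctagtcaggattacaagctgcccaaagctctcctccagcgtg
Serpina5: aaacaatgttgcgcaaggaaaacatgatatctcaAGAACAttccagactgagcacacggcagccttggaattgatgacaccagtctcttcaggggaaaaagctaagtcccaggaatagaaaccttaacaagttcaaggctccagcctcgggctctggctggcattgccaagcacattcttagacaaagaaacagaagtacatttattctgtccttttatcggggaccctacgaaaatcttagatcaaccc
Serpina3a: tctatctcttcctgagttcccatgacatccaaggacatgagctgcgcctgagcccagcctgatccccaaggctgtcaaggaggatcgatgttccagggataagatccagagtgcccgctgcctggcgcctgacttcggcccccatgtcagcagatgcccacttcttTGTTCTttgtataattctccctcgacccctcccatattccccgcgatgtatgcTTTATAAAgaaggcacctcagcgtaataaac

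Serpina16 held 2 matches to AGAACA as its reverse complement TGTTCT, starting 158 and 13 bases before the start site. Serpina1f held neither motif in this window, Serpina5 held AGAACA 216 bases before its start, and Serpina3a held TGTTCT at 84 bases and overlapping TTTATA and TATAAA at 31 and 29 bases. Such letters are common: of 32851 promoters of this length, 16.1% held AGAACA and 12.4% TATAAA on either strand, against 21 of 62 (33.9%) and 17 of 62 (27.4%) entries for 53 members. A match is a description of these letters and not of binding. The RefSeq start of Serpina16 (103676762) lies upstream of the GENCODE start (103676139), so the window shown need not be the promoter used in this tissue.

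Serpina16 had no read in the 8 libraries of the initial segment and appeared in the caput. Its 4 libraries at 3 months held 156, 116, 104 and 160 CPM in caput. In corpus they held 3070, 2929, 2742 and 2828 CPM, and in cauda 2299, 2158, 1211 and 2372 CPM. Every corpus library exceeded every cauda library, and the level in vas deferens fell to 33.9, 55.7, 43.0 and 40.3 CPM. The corpus mean was 8.28 times that of the remaining 6 regions (edgeR quasi-likelihood test, adjusted p = 2.08e-27) and 1.52 times the cauda mean. The drop from cauda to vas deferens was a log2 difference of −5.39 (SE 0.21, edgeR adjusted p = 2.68e-17).

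Serpina1f rose at the same boundary and stayed high to the end of the tract. It measured 0.624 ± 0.519 CPM in the initial segment and 1127, 1164, 953 and 1412 CPM in the caput libraries, a log2 difference of 10.95 (SE 0.34, edgeR adjusted p = 4.02e-20). The corpus libraries held 1294, 1411, 1307 and 1385 CPM, and the cauda libraries 3199, 3421, 1867 and 3521 CPM. No corpus library reached the lowest cauda library, and the step was a log2 difference of 1.08 (SE 0.21, edgeR adjusted p = 0.000171). In vas deferens the values were 2284, 2114, 2316 and 2173 CPM, inside the range of the cauda.

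A member was called region-specific when its edgeR adjusted p over all genes was under 0.05 and its mean was no less than 4 times the average of the remaining 6 regions. At 3 months 29 members made 31 such calls, namely 15 in testis, 5 in efferent ductules, 1 in initial segment, 2 in caput, 3 in corpus, 3 in cauda and 2 in vas deferens, of 48 tested. The share of all 34475 genes tested that passed the same rule was 28.2% in testis, 5.46% in efferent ductules, 2.48% in initial segment, 3.42% in caput, 2.70% in corpus, 2.18% in cauda and 3.20% in vas deferens. The testis share of members, 31.2%, was near that background. Of the 31 calls, 15 were of members under 1 CPM in the region, most of them in testis, and 16 of at least 1 CPM. When each other region had to be exceeded in turn, 13 calls were left at 3 months.

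At 21 months the count was again 31, of 46 members tested: 14 in testis, 4 in efferent ductules, 3 in initial segment, 1 in caput, 4 in corpus, 2 in cauda and 3 in vas deferens. The background shares were 27.6%, 5.22%, 4.21%, 1.77%, 2.88%, 1.97% and 3.98% in that order. The ages shared 21 calls, and 13 of the 16 at 1 CPM or more at 3 months were made again. Those not made again were Serpina3b in vas deferens, Serpina3m in efferent ductules and Serpinb6b in cauda.

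Testis held a clade A group that was almost absent elsewhere. Serpina5 gave 71.4, 71.8, 77.5 and 69.2 CPM at 3 months, 414 times the other regions together (edgeR adjusted p = 6.51e-24), and no other region exceeded 0.414 ± 0.320 CPM. Serpina3a gave 25.6, 27.0, 32.3 and 22.3 CPM, 669 times the other regions (edgeR adjusted p = 2.32e-17). That multiple became 1982 without the 3 libraries of 3 months that stood apart (chosen after seeing the data), among them the efferent ductule library with the high germ cell markers. For both genes the lowest testis library lay above every library of the other regions.

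Serpina3g, an inhibitor of cysteine cathepsins known from lymphocytes, gave 21.4, 19.0, 17.9 and 21.3 CPM in testis. It was 11.3 times the other regions (edgeR adjusted p = 1.13e-15), and the next region, cauda, held 2.65, 1.46, 8.17 and 1.47 CPM, the high value being replicate 3, which stood apart. Serpini1, the tissue plasminogen activator inhibitor neuroserpin, was lower at 8.73 ± 0.385 CPM and 6.43 times the other regions (edgeR adjusted p = 2.22e-13). Serpina3c was shared by testis (17.8 ± 0.965 CPM) and efferent ductules (15.8 ± 0.996 CPM). Serpinb6a was highest in testis at 120 ± 3.86 CPM but stood above 10 CPM in all 7 regions, as did Serping1. The 5 closely related Serpina1a to Serpina1e, genes of α1-antitrypsin, were each under 1 CPM, and between 14.4% and 58.5% of their 100-base windows occur in another gene, so their split is uncertain.

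Efferent ductules, which resorb most of the testicular fluid, carried the highest levels of Serpina3n, a member known from inflammation. It gave 59.7, 63.9, 62.2 and 54.8 CPM, 4.16 times the other regions (edgeR adjusted p = 4.77e-14). Its groups did not overlap except with the cauda, whose replicate 3 held 60.8 CPM against 20.7 to 22.7 in the other 3. The multiple of Serpina3n fell to 3.99 without replicate 1 of each region and 3.87 without replicate 2, under the 4 required. Serpinb1b was lower at 3.65 ± 0.901 CPM and 15.6 times the other regions (edgeR adjusted p = 9.26e-15).

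Serpinf2 marked the proximal epididymis. Its libraries held 71.1, 131, 85.9 and 207 CPM in initial segment and 113, 71.7, 146 and 64.4 CPM in caput at 3 months. The ranges of these regions overlapped, and both exceeded all others, among which the highest mean was 2.36 ± 0.642 CPM in efferent ductules. The multiples of the other 6 regions were 6.87 (edgeR adjusted p = 1.09e-22) and 4.92 (edgeR adjusted p = 7.67e-22). From caput to corpus it fell by 8.37 on the log2 scale (SE 0.44, edgeR adjusted p = 1.09e-15). The caput multiple was 3.81 without replicate 3 of each region.

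Serpine2 and Serpinb6b peaked in the cauda. Serpine2 gave 647, 665, 308 and 616 CPM there and 42.0, 62.5, 58.4 and 48.1 CPM in vas deferens, the next region, with 18.4 ± 7.23 CPM in corpus. The cauda was 28.3 times the other regions and 9.53 times the vas deferens (edgeR adjusted p = 1.94e-25), and its lowest library, replicate 3, still lay above every library of other regions. Serpinb6b, close in sequence to Serpinb6a, gave 34.6, 34.4, 30.4 and 38.3 CPM in cauda and 18.4, 23.7, 23.1 and 23.5 CPM in corpus. The cauda libraries did not overlap with those of any other region. Its multiple of 4.00 sat at the limit of the rule (edgeR adjusted p = 7.42e-18) and ranged down to 3.8, without replicate 1 of each region.

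In the corpus, Serpinb12 reached 9.25 ± 1.43 CPM, 20.4 times the other regions (edgeR adjusted p = 1.38e-16), and Serpina7, the thyroxine-binding globulin gene, 2.61 ± 0.404 CPM, 9.33 times (edgeR adjusted p = 2.76e-11). Other clade B members were spread over regions. Serpinb9, the granzyme B inhibitor, ranged from 7.18 ± 1.07 CPM in testis to 52.0 ± 3.08 in cauda. Serpinb5 (maspin) lay between 4.01 ± 0.899 and 9.68 ± 1.2 CPM from initial segment to vas deferens. Serpinb8, an inhibitor of furin, stayed between 0.474 ± 0.253 and 4.61 ± 2.14 CPM, and Serpinb1a, an inhibitor of neutrophil elastase, between 1.17 ± 0.108 and 8.0 ± 0.660 CPM.

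**Figure D2:**
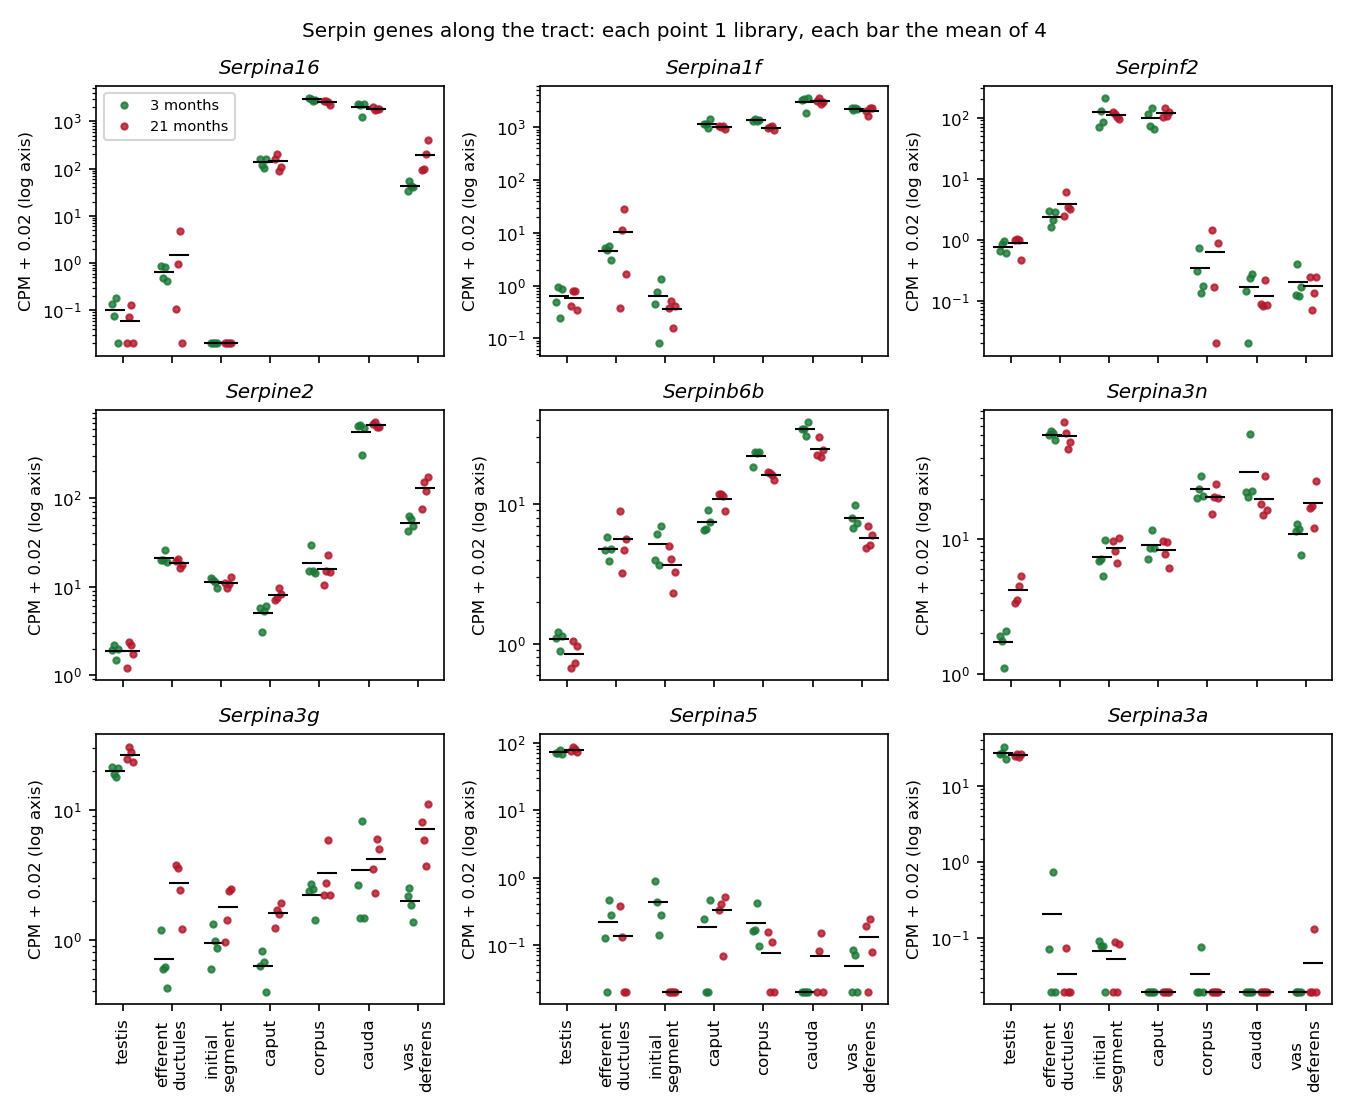
Values of 9 members in every library along the tract: the x axis is the region, the y axis CPM plus 0.02 on a log axis, green points are 3 months, red points 21 months and black bars the means of 4 libraries. Serpina5, Serpina3a and Serpina3g stand in testis, Serpina3n in efferent ductules, Serpinf2 in initial segment and caput, Serpina16 and Serpina1f from caput onward, and Serpine2 and Serpinb6b in cauda.

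Between neighbouring regions at 3 months, a step was a difference of at least 2-fold with edgeR adjusted p under 0.05. Members made 101 steps, and the boundaries at either end of the efferent ductules held the most. From testis to efferent ductules 33 of 48 members stepped (15 up, 18 down), or 68.8%, near the 64.5% of all genes that did. From efferent ductules to initial segment 23 stepped (6 up, 17 down), or 47.9%, where 27.6% of all genes did. From initial segment to caput 5 stepped (4 up, 1 down) beside 15.1% of all genes, from caput to corpus 16 (12 up, 4 down) beside 19.5%, from corpus to cauda 7 (2 up, 5 down) beside 12.3%, and from cauda to vas deferens 17 (4 up, 13 down) beside 21.3%.

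Of these steps 67, on 28 members, had a mean of at least 1 CPM in 1 of the regions compared, and 57 of the 67 were made in the same direction at 21 months. The 12 downward steps of this size into the initial segment included Serping1, Serpinf1, Serpinh1, Serpina3n and Serpinb1a, while Serpinf2, Serpinb9, Serpinb5, Serpina3i and Serpini1 rose. Into the corpus 10 rose, among them Serping1 (log2 difference 1.21, SE 0.11, edgeR adjusted p = 1.39e-10), Serpinb6b, Serpina3n, Serpine2 and Serpina16. Into the vas deferens Serpina3b was the only one of this size to rise, and Serpina16, Serpina3n, Serpinb12, Serpinb6b, Serpinb9, Serpine2, Serpinf1 and Serping1 fell.

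Between 3 and 21 months, 17 members changed in at least 1 region, with 11 increases and 19 decreases at edgeR adjusted p under 0.05. In testis 2 of 42 members tested rose and none fell, where 0.353% of all genes rose and 0.210% fell. In efferent ductules 1 rose and 1 fell of 33 (all genes, 4.00% and 2.98%). In initial segment none rose and 3 fell of 31 (3.35% and 3.01%). In caput 2 rose and 4 fell of 30 (3.09% and 5.05%), and in corpus none rose and 7 fell of 34 (1.5% and 1.47%). In cauda none of 32 passed (0.0700% and 0.0583%), with 6 at an unadjusted p under 0.05 and 2 calls by the DESeq2 Wald test. In vas deferens 6 rose and 4 fell of 36 (11.4% and 8.47%). The median log2 change of the members tested was −0.27 in corpus, where that of all genes was −0.01, and between −0.17 and 0.09 in the other regions.

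The labels do not tie libraries to mice, and a p-value here measures the spread between 4 libraries per group. In bulk tissue, fewer cells of a type and less RNA per cell cannot be told apart. Of the 30 calls, 4 were of members under 1 CPM over the region, named here after their values were seen: Serpina3k in efferent ductules, Serpina5 in initial segment, Serpina3b in corpus and Serpinb9c in vas deferens. The first 3 had no read in the 4 libraries of 21 months, from means of 0.403, 0.414 and 0.329 CPM. Serpinb9c went from 0.0156 ± 0.0313 to 1.28 ± 0.955 CPM, and 15.9% of its windows occur in another gene.

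**Figure D3:**
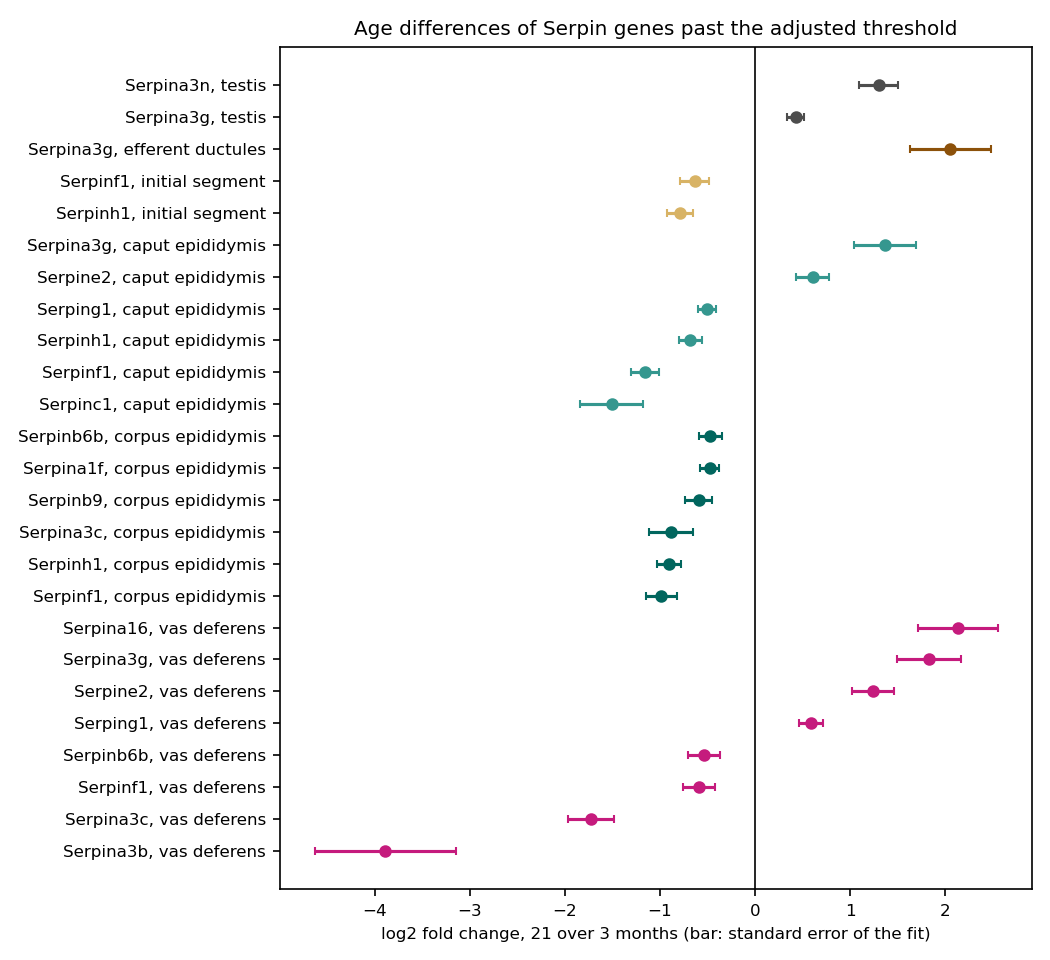
Age differences of members past the adjusted threshold with at least 1 CPM over the region: the x axis is the log2 fold change of 21 over 3 months with its standard error, each row is 1 member in 1 region, and colours mark regions. The 25 rows hold 9 increases and 16 decreases, from −3.89 for Serpina3b in vas deferens to 2.13 for Serpina16 in vas deferens.

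The vas deferens held the most calls among members, 10 of 36 (27.8%), and was also the region where the largest shares of all genes rose and fell. Serpina16 went from 33.9, 55.7, 43.0 and 40.3 CPM to 91.0, 96.6, 198 and 403 CPM. All 4 libraries of 21 months lay above those of 3 months, with a spread of over 4-fold among themselves. The log2 change was 2.13 (SE 0.42, edgeR adjusted p = 0.00639), and lay between 1.49 and 2.36 with 1 library left out in turn. Genes that mark the cauda moved with it in the same libraries: Ptgds went from 5.05 to 8.94 CPM at 3 months to 20.6, 22.7, 54.1 and 61.2 at 21 months, and Wfdc9 from 2.34 to 4.16 CPM to 4.47, 5.60, 11.2 and 22.8. The part of cauda transcripts in this change was not tested.

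Serpine2, which is also highest in cauda, went from 42.0, 62.5, 58.4 and 48.1 CPM to 75.4, 152, 120 and 173 CPM in vas deferens. The groups did not overlap, and the log2 change was 1.24 (SE 0.22, edgeR adjusted p = 0.00375). In cauda itself Serpine2 measured 559 ± 169 and 666 ± 37.6 CPM (edgeR adjusted p = 0.657) and Serpina16 2010 ± 540 and 1858 ± 108 CPM (edgeR adjusted p = 0.875).

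Serping1 and Serpina3g rose in vas deferens as well. Serping1 went from 125, 167, 123 and 115 CPM to 194, 235, 181 and 217 CPM, with no overlap (log2 change 0.59, SE 0.13, edgeR adjusted p = 0.00994). Serpina3g went from 2.17, 2.50, 1.83 and 1.36 CPM to 8.04, 5.85, 3.71 and 11.2 CPM (log2 change 1.83, SE 0.34, edgeR adjusted p = 0.00479), again with no overlap. Markers of lymphocytes rose in these libraries: all 8 T cell markers and all 7 markers of B and plasma cells passed the test. Their summed levels went from 6.08 to 9.94 CPM to between 21.9 and 66.3 CPM, and from 12.7 to 27.6 CPM to between 491 and 1113 CPM. The highest Serpina3g value and the highest sum of each list were in replicate 4. Of 8 macrophage markers 2 rose, with overlapping sums of 187 to 260 and 172 to 291 CPM, and of 6 mast cell markers 2 fell, with sums of 68.5 to 75.2 and 27.9 to 72.5 CPM. The part of white blood cells in these results was not tested. In the same libraries 7 seminal vesicle markers went from 3.13 to 4.86 CPM in sum to between 22.5 and 1930 CPM.

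Serpina3b and Serpina3c fell. Serpina3b went from 7.67, 1.38, 5.94 and 4.77 CPM to 0.949, 0.353, 0 and 0.0571 CPM, with no overlap (log2 change −3.89, SE 0.74, edgeR adjusted p = 0.00553). With 1 library left out in turn the log2 change lay between −5.12 and −3.47, and the call was kept. Serpina3b was specific to vas deferens at 3 months (7.38 times the other regions), and at 21 months it was specific to testis, at 2.55 ± 0.406 CPM. At 3 months 3 regions held at least 1 CPM of it, and in testis it did not pass the test of age. Serpina3c went from 5.02, 3.69, 4.70 and 4.87 CPM to 1.84, 1.56, 0.900 and 1.43 CPM, with no overlap (log2 change −1.72, SE 0.24, edgeR adjusted p = 0.00143). In these libraries the sum of 7 hepatocyte markers went from 33.6 to 68.7 CPM to between 1.65 and 22.6 CPM, with no overlap, and that of 7 adipocyte markers from 33.3 to 172 CPM to between 2.97 and 95.7 CPM. In each list 1 marker fell and none rose by the test, and their part in the results was not tested. Serpinf1 went from 24.4, 30.01, 26.6 and 27.8 CPM to 22.2, 23.7, 15.1 and 14.2 CPM (log2 change −0.59, SE 0.17, edgeR adjusted p = 0.0345). Serpinb6b went from 7.93 ± 1.32 to 5.71 ± 0.943 CPM with overlapping groups (edgeR adjusted p = 0.0461). Each of the last 2 calls was lost when any of 5 of the 8 libraries was left out, with adjusted p of up to 0.0875 and 0.147.

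**Figure D4:**
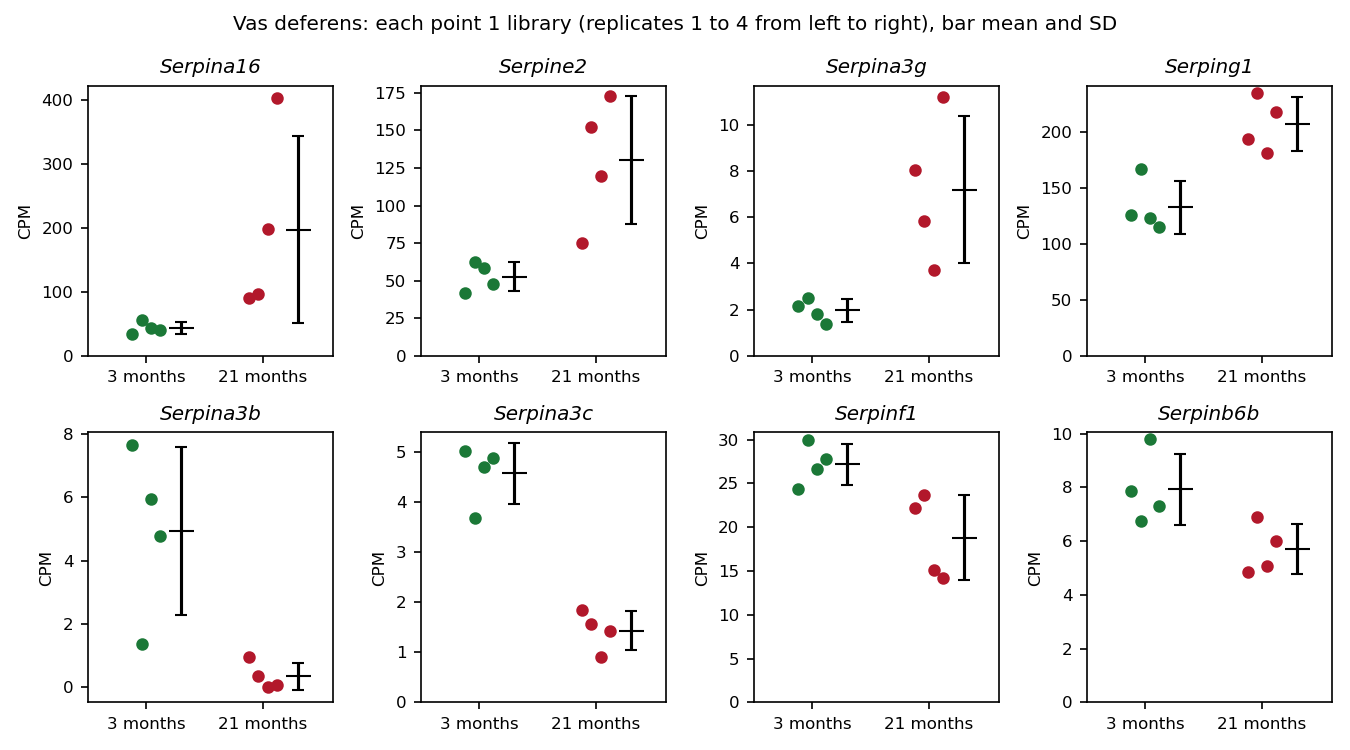
Vas deferens libraries for 8 members: the y axis is CPM, points are replicates 1 to 4 from left to right at 3 months (green) and 21 months (red), and black bars are mean ± SD. Serpina16, Serpine2, Serpina3g and Serping1 are higher in every library of 21 months, Serpina3b, Serpina3c and Serpinf1 lower, and the groups of Serpinb6b overlap.

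Serpinf1 and Serpinh1, made largely by connective tissue cells, fell in initial segment, caput and corpus. In caput Serpinf1 went from 25.8, 27.4, 38.6 and 26.9 CPM to 12.4, 13.2, 14.6 and 15.5 CPM (log2 change −1.15, SE 0.15, edgeR adjusted p = 0.00107). In corpus it went from 45.7, 47.1, 57.6 and 36.6 CPM to 21.2, 23.8, 31.2 and 18.8 CPM (log2 change −0.98, SE 0.16, edgeR adjusted p = 0.00272). In initial segment it went from 35.1, 29.5, 42.7 and 32.2 CPM to 27.4, 19.7, 16.1 and 18.6 CPM (log2 change −0.63, SE 0.15, edgeR adjusted p = 0.0204). The ages did not overlap in any of these regions. The initial segment call was lost when any of 5 libraries was left out, with adjusted p of up to 0.0754.

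Serpinh1 went from 39.3, 41.4, 59.3 and 53.8 CPM to 30.9, 22.5, 23.6 and 25.2 CPM in initial segment (log2 change −0.79, SE 0.14, edgeR adjusted p = 0.00348). In caput it went from 48.9, 35.9, 61.0 and 44.9 CPM to 33.0, 28.4, 32.7 and 29.7 CPM (log2 change −0.68, SE 0.12, edgeR adjusted p = 0.00755). In corpus it went from 86.3, 74.4, 94.2 and 60.1 CPM to 40.6, 37.1, 45.9 and 45.8 CPM (log2 change −0.90, SE 0.12, edgeR adjusted p = 0.000575). Here too the ages did not overlap in any of these regions, and no single library decided a call of Serpinh1.

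In cauda Serpinf1 went from 48.0, 44.7, 95.8 and 51.3 CPM to 20.8, 15.4, 21.8 and 19.7 CPM. The log2 change was −1.64 (SE 0.27), with no overlap, and edgeR adjusted p = 0.0559. Without replicate 3 of 3 months, which holds the fibroblast and macrophage transcripts, it was −1.26 (SE 0.16, edgeR adjusted p = 0.0150). Serpinh1 went from 88.7, 89.6, 161 and 77.7 CPM to 39.7, 23.9, 53.4 and 43.4 CPM in cauda (log2 change −1.39, SE 0.30, edgeR adjusted p = 0.110).

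The summed fibroblast markers separated by age in the same direction in all 7 regions, without overlap. They went from 1054 to 1668 CPM to between 687 and 839 in initial segment, from 721 to 1572 to between 493 and 556 in caput, and from 1512 to 3079 to between 690 and 877 in corpus. Of the 6 markers, 3 passed the test in initial segment, 3 in caput and 6 in corpus, all lower. In efferent ductules the marker sum went from 2606 to 3654 CPM to between 1347 and 1514 (3 of 6 markers passed, all lower), while Serpinf1 measured 89.8 ± 6.70 and 75.3 ± 17.9 CPM (edgeR adjusted p = 0.582) and Serpinh1 108 ± 6.80 and 92.4 ± 11.9 CPM (edgeR adjusted p = 0.491). The part of fibroblasts in these results was not tested.

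**Figure D5:**
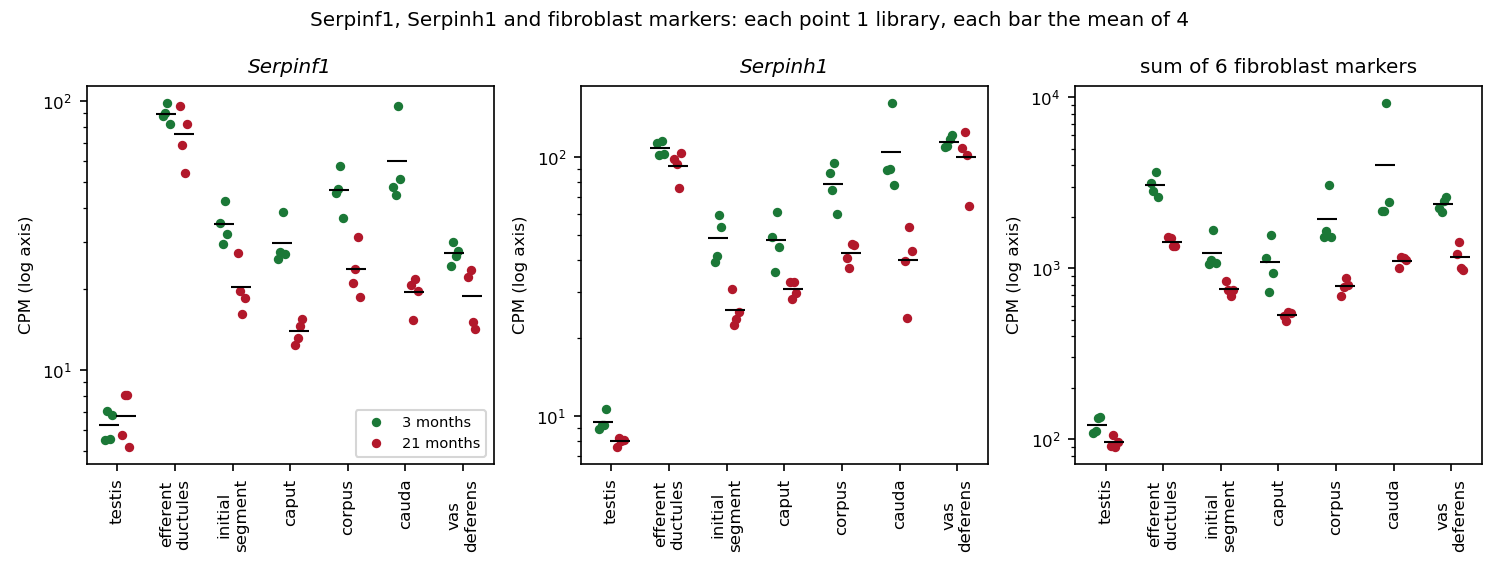
Serpinf1, Serpinh1 and the sum of 6 fibroblast markers in every library: the x axis is the region, the y axis CPM on a log axis, green points are 3 months, red points 21 months and black bars means of 4 libraries. The ages do not overlap in initial segment, caput, corpus or cauda for either gene, and replicate 3 of the 3-month cauda is the highest point of its group for all 3 (95.8, 161 and 9232 CPM).

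Further changes in caput and corpus were smaller or rested on low levels. In caput Serping1 went from 132 ± 13.9 to 96.8 ± 5.30 CPM (log2 change −0.50, SE 0.09, edgeR adjusted p = 0.00790), opposite to its change in vas deferens. Serpinc1, the antithrombin gene, went from 1.22, 2.28, 1.70 and 1.64 CPM to 0.550, 0.770, 0.523 and 0.597 CPM in caput with no overlap (log2 change −1.50, SE 0.33, edgeR adjusted p = 0.0179). Of its exons 34.4% overlap the antisense gene Zbtb37. Serpine2 went from 5.76, 3.08, 5.31 and 6.10 CPM to 7.09, 7.51, 9.55 and 8.20 CPM in caput with no overlap (log2 change 0.61, SE 0.17, edgeR adjusted p = 0.0493). Leaving out any of 3 libraries of 21 months ended the Serpinc1 call, and any of 7 of the 8 libraries the Serpine2 call. Scaling by library size alone ended the caput calls of Serpinf1, Serpinh1, Serping1, Serpinc1 and Serpine2, where it moved the median of all genes by 0.19 on the log2 scale.

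In corpus Serpina1f went from 1294, 1411, 1307 and 1385 CPM to 977, 1005, 1035 and 882 CPM (log2 change −0.48, SE 0.10, edgeR adjusted p = 0.0155), with no overlap. Without replicate 4 of 21 months or replicate 2 of 3 months its adjusted p was up to 0.0811, and the call was also lost in a fit of all 56 libraries and with scaling by library size alone (adjusted p of up to 0.705). Serpinb9 went from 43.9, 42.3, 44.1 and 56.6 CPM to 23.7, 33.1, 33.4 and 35.0 CPM (log2 change −0.59, SE 0.14, edgeR adjusted p = 0.0311). Serpina3c went from 5.84, 6.33, 10.3 and 5.18 CPM to 3.52, 2.79, 4.75 and 4.12 CPM (log2 change −0.88, SE 0.23, edgeR adjusted p = 0.0461). Its highest library, replicate 3 of 3 months, also had the highest corpus sums of hepatocyte (37.8 CPM) and adipocyte markers (217 CPM). The hepatocyte sums were 7.76 to 37.8 and 4.14 to 7.39 CPM at the respective ages, and their part was not tested. Serpinb6b went from 22.2 ± 2.50 to 16.1 ± 0.905 CPM (log2 change −0.47, SE 0.12, edgeR adjusted p = 0.0433). None of these groups overlapped, and the calls were lost on leaving out any of 5, 5 and 7 of the 8 libraries. All 3 were lost in a fit of all 56 libraries. Serpina3c was also lost with DESeq2 size factors, with edgeR's filterByExpr and without Gm42418 (adjusted p of up to 0.0722), and Serpinb6b with scaling by library size alone (adjusted p of up to 0.358).

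In testis the 2 increases were Serpina3n and Serpina3g. Both calls were lost in a fit of all 56 libraries (edgeR adjusted p = 0.163 for Serpina3n). Serpina3n went from 1.89, 1.74, 1.09 and 2.06 CPM to 3.33, 3.55, 4.47 and 5.35 CPM (log2 change 1.30, SE 0.20, edgeR adjusted p = 0.00168), with no overlap. Serpina3g went from 19.9 ± 1.72 to 26.8 ± 3.29 CPM (log2 change 0.43, SE 0.09, edgeR adjusted p = 0.0292). No T cell marker passed the test in testis, and the sums of that list were 6.76 to 7.20 and 6.34 to 8.17 CPM. The main testis members Serpina5 and Serpina3a measured 72.5 ± 3.54 and 79.5 ± 6.51 CPM, and 26.8 ± 4.16 and 25.1 ± 1.04 CPM, at 3 and 21 months, and neither passed the test of age.

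Serpina3g also rose in efferent ductules, from 1.17, 0.580, 0.602 and 0.405 CPM to 3.77, 3.54, 2.39 and 1.18 CPM (log2 change 2.05, SE 0.43, edgeR adjusted p = 0.0217). In caput it went from 0.610, 0.803, 0.657 and 0.377 CPM to 1.22, 1.67, 1.57 and 1.90 CPM (log2 change 1.37, SE 0.33, edgeR adjusted p = 0.0243). Neither pair of groups overlapped, though in efferent ductules the highest young and the lowest old library were 1.17 and 1.18 CPM. Summed T cell markers went from 5.52 to 6.31 CPM to between 14.4 and 16.2 in efferent ductules and from 3.15 to 5.38 CPM to between 9.45 and 14.8 in caput. Those of B and plasma cells went from 26.6 to 35.3 CPM to between 106 and 401 in efferent ductules, and overlapped in caput. Of 8 macrophage markers 4 rose in efferent ductules and 2 in caput, and none fell. The part of these cells in the result was not tested. The efferent ductules call was lost without replicate 2, 3 or 4 of 3 months, and the testis and caput calls on leaving out any of 4 and any of 5 libraries.

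The efferent ductules gave a different count without the 2 libraries of 21 months that held initial segment transcripts, an alternative chosen after seeing the data. Then 5 members rose and 5 fell, beside 13.4% of all genes rising and 13.7% falling. Both counts lay near those shares of the members tested. The old group was then replicates 1 and 4, with the lowest totals of all libraries (11442133 and 11125279 counts). Gm42418 took 22.2% and 18.5% of their counts, against 1.27% to 3.29% in the young ductules, and its part was not tested. Serping1 went from 343 to 477 CPM (log2 change 0.62, SE 0.09, edgeR adjusted p = 0.000644) and Serpinb6a from 52.8 to 70.7 CPM (0.57, SE 0.08, edgeR adjusted p = 0.000303). Serpina16 and Serpina1f, at 0.638 and 4.56 CPM in the young ductules, fell by 3.49 and 2.05 on the log2 scale in this fit. With all 8 libraries their direction was the opposite and neither was called, with 1.45 ± 2.26 and 10.3 ± 12.9 CPM at 21 months (log2 changes 1.31 and 1.26). With all 8 libraries Serping1 measured 343 ± 26.5 and 440 ± 50.7 CPM, without overlap (edgeR adjusted p = 0.0659).

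Whether the age effect differed between regions was tested by the interaction of age and region over all 56 libraries. Of 51 members tested 16 passed (31.4%), where 20.2% of all genes did. The lowest values among those reported were Serping1 (edgeR adjusted p = 2.64e-05), Serpinf1 (0.000218), Serpine2 (0.00103) and Serpinh1 (0.00187). Without 1 replicate number in all groups between 4 and 9 members passed, with 4 without replicate 4.

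Proteases and partners of the family, in lists written with earlier results of these data known, are given as counts, with nothing taken as particular to a list. Of 21 plasminogen and coagulation genes, 6 were specific to efferent ductules at 3 months (5.46% of all genes): F2, Habp2, Hpn, Plat, Plg and Proc, of which F2 (0.868 CPM) and Plg (0.145 CPM) were under 1 CPM. F11 and F12 were specific to testis (28.2% of all genes) and F10, F7 and Plaur to cauda (2.18%), where each of the last 3 had an SD above its mean. That cauda group holds replicate 3, the library with high fibroblast and macrophage markers, whose part in these calls was not tested. Plat, the tissue plasminogen activator, measured 157 ± 27.4 CPM in efferent ductules and fell with age to 89.1 ± 14.2 (log2 change −0.73, edgeR adjusted p = 0.0146). Plau, the urokinase gene, was specific to vas deferens at 370 ± 27.6 CPM, where it fell to 265 ± 66.4 (log2 change −0.54, edgeR adjusted p = 0.0341), while in corpus it rose from 96.9 ± 8.26 to 177 ± 45.9 CPM (0.85, edgeR adjusted p = 0.00206). Over the 7 regions 2 genes of this list rose in 1 region each and 4 region calls were decreases, the others being F7 up in efferent ductules, Thbd down in testis and F3 down in corpus. Of all genes 4.00% rose and 2.98% fell in efferent ductules, 1.5% and 1.47% in corpus, and 0.210% fell in testis and 8.47% in vas deferens. Among clearance receptors and their partners, Lrpap1 rose and Vldlr fell in vas deferens, and Lrp2 fell in efferent ductules. Lrp2, an endocytic receptor that clears serpin complexes, measured 2411 ± 159 CPM in efferent ductules and fell to 1669 ± 71.3 (log2 change −0.45, edgeR adjusted p = 0.0295).

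Of 12 sperm and glandular serine proteases, 9 were specific to testis at 3 months, the region of Serpina5, where 28.2% of all genes were. They included the acrosomal acrosin gene Acr (128 ± 11.7 CPM), Prss39 (164 ± 17.2 CPM) and Prss55 (119 ± 7.87 CPM). With age 4 kallikrein genes fell in testis, among them Klk1b21 from 14.6 ± 7.06 to 2.81 ± 0.974 CPM (log2 change −2.38, edgeR adjusted p = 8.32e-06). Of all genes 0.210% fell in testis. Elsewhere 2 of this list rose in efferent ductules (4.00% of all genes), 2 fell in initial segment (3.01%), and 1 rose and 1 fell in vas deferens (11.4% and 8.47%). In efferent ductules 1 of the 2 was the initial segment gene Ovch2, at 30.6 ± 41.7 CPM in the group that holds the libraries with initial segment transcripts. Of 13 granule proteases of white blood cells, 5 mast cell genes, Cma1, Cpa3, Mcpt4, Tpsab1 and Tpsb2, were specific to vas deferens (3.20% of all genes). Tpsab1 was called there at under 1 CPM, as were Gzmk in testis, Elane and Prtn3 in efferent ductules and Ctsg in corpus. With age Cma1 and Tpsb2 rose in efferent ductules, Ctsg and Tpsb2 in corpus and Gzmk in vas deferens, where Cma1 and Cpa3 fell. The shares of all genes that rose were 4.00%, 1.5% and 11.4% in these regions, and 8.47% fell in vas deferens. Gzmb, the target of Serpinb9, rose in caput from 0.716 ± 0.439 to 2.32 ± 0.243 CPM (log2 change 1.78, edgeR adjusted p = 0.0131), where Serpinb9 measured 31.2 ± 7.36 and 44.0 ± 3.13 CPM (edgeR adjusted p = 0.0945).

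Of 15 collagens and collagen-folding partners, the clients and helpers of Serpinh1, none rose with age in any region. The shares of all genes that fell were 0.210%, 2.98%, 3.01%, 5.05%, 1.47%, 0.0583% and 8.47% from testis to vas deferens. Decreases passed the test for 5 in testis, 6 in efferent ductules, 11 in initial segment, 8 in caput, 8 in corpus, 0 in cauda and 6 in vas deferens. Their median log2 changes were −0.32, −0.31, −0.74, −1.03, −0.71, −1.27 and −0.35, where the medians of all genes lay between −0.04 and 0.02. Of the fibroblast markers, 3 collagens are also in this list. Col1a1 fell in caput from 267 ± 126 to 59.9 ± 5.04 CPM (log2 change −2.19, edgeR adjusted p = 0.000475).

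Of 7 complement genes around C1, whose proteases Serping1 blocks, 3 rose in efferent ductules, 4 in initial segment and 2 in vas deferens, beside 4.00%, 3.35% and 11.4% of all genes. In caput and in vas deferens 1 fell, beside 5.05% and 8.47%. The genes that rose were those of the C1q chains, C1qa, C1qb and C1qc, with 1 exception. This was the protease gene Masp2, which rose in initial segment from 0.433 ± 0.151 to 1.86 ± 0.223 CPM. Masp2 was also the gene that fell in caput, from 1.74 ± 0.439 to 0.457 ± 0.155 CPM. C1qa and C1qb are also among the macrophage markers. C1qc rose in vas deferens from 15.9 ± 3.03 to 33.0 ± 6.27 CPM (log2 change 1.0, edgeR adjusted p = 0.00314), and the protease gene C1s1 fell there from 109 ± 9.71 to 76.1 ± 18.2 CPM (−0.57, edgeR adjusted p = 0.0260). Of 9 cysteine cathepsins, 2 rose in each of efferent ductules, initial segment, caput and vas deferens, 1 fell in initial segment and 4 in vas deferens. The shares of all genes that rose in the same 4 regions were 4.00%, 3.35%, 3.09% and 11.4%, and the shares that fell were 3.01% in initial segment and 8.47% in vas deferens. Ctss rose in all 4 of these regions, for example from 22.1 ± 4.00 to 40.2 ± 12.8 CPM in vas deferens (log2 change 0.81, edgeR adjusted p = 0.0254), where Serpina3g rose as well.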

How the data were processed

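Total RNA of each region was sequenced as stranded paired-end libraries. Per the labels and the study's methods, the authors aligned reads to mouse GRCm38 with HISAT2 and deposited raw counts per gene, 1 column per library. The submitters' processing notes also name cutadapt and HTSeq, without versions. The annotation release, counting mode and strand setting are not given in the sources used here. The labels name TRIzol and the methods an RNeasy kit for RNA isolation.

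Gene symbols, exon lengths and coordinates were matched by Ensembl identifier to GENCODE M21 (GRCm38), which named 53274 of 53379 rows. Region and age came from the labels. Counts were scaled by TMM and tested in edgeR 4.0.16 (R 4.3.3) with quasi-likelihood F tests, keeping genes that summed to at least 10 counts across a fit, and p-values were adjusted over all genes tested by the Benjamini-Hochberg method. Age was fitted within each region (8 libraries), regions within each age (28 libraries), and the interaction over 56 libraries. The study's own threshold, an unadjusted p and 1.5-fold, was an alternative, as were DESeq2 1.42.0, other filters and scalings, a replicate block and leaving out each library. Regions of a mouse entered as independent libraries, since labels do not link them. The scripts were tested on simulated data.

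Members, marker lists and pathway lists were chosen with earlier results of these data known. Values are named for members that were region-specific at 3 months with at least 10 CPM, changed with age or differed in age effect with at least 1 CPM, or were among the 5 highest per length in a region. Pathway genes are named where they changed most of their list in a region, were region-specific or made up a count of 5 or fewer. The values of 1 member, which counts and sums include, are not reported here. Some other members are named after their values were seen. No 2 replicates agreed within sampling noise: the lowest chi-square per degree of freedom between libraries of a group was 3.03. Totals of 11125279 to 20561967 counts per library limit precision for members under 1 CPM.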

Additional observations from a re-analysis of the deposited data

Results flagged for a closer look

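Among 165 groups of 4 libraries with a member at 1 CPM or more, 14 had a library set apart from the other 3 by Dixon's criterion, which chance meets in about 1 in 20 groups. In replicate 3 of the 3-month cauda, 4 members were flagged: Serpina3n (60.8 CPM), Serpinf1 (95.8) and Serpinh1 (161) were high and Serpine2 (308) was low. That library also held the high fibroblast and macrophage marker sums, whose part in these values was not tested. In corpus the flagged values were Serpina16 at 2255 CPM in replicate 4 of 21 months, Serpina3g at 5.85 in replicate 3 of 21 months, Serpinb6b at 18.4 in replicate 1 of 3 months, Serpine2 at 29.2 in replicate 2 of 3 months, and Serpinb9 at 56.6 in replicate 4 of 3 months and 23.7 in replicate 1 of 21 months. In caput they were Serpinf1 at 38.6 CPM in replicate 3 of 3 months and Serpinb6b at 8.90 in replicate 4 of 21 months. The others were Serpina3c at 2.94 CPM in replicate 2 of the 21-month cauda and Serpine2 at 25.6 in replicate 3 of the 3-month efferent ductules.

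The effect of age differed between regions for 16 members by the edgeR interaction test, of which 15 are given here. Adjusted p-values were 2.64e-05 for Serping1, 0.000218 for Serpinf1, 0.00103 for Serpine2, 0.00187 for Serpinh1, 0.00241 for Serpina3n, 0.00481 for Serpina16 and 0.00881 for Serpina3b. They were 0.0112 for Serpina5, 0.0117 for Serpinb6b, 0.0162 for Serpina3c, 0.0253 for Serpina3k, 0.0289 for Serpinc1, 0.0336 for Serpinb6a, 0.0392 for Serpinb9 and 0.0397 for Serpina3g. Serpina3k, and Serpina5 outside the testis, were under 1 CPM in all groups.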

How the results depend on the processing

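Of 273 recalculations of 34 named values none reversed and 245 stayed past the threshold, and of 236 that left out a library, 175 did. Region calls of 31 at each age became 13 at 3 months and 12 at 21 months against each other region in turn, and 15 and 19 with edgeR's filterByExpr. The 30 age calls became 47 with the study's threshold of an unadjusted p and 1.5-fold, which gave 1 in testis (for 2), 6 in efferent ductules (for 2), 7 in initial segment (for 3) and 4 in cauda (for 0). A fit of all 56 libraries gave 0 age calls in testis, 2 in corpus (for 7) and 2 in cauda, and also ended the calls of Serpina3g and Serpine2 in caput and of Serpinf1 and Serpinb6b in vas deferens. Scaling by library size alone, which moved the median of all genes by −0.38 in efferent ductules, 0.19 in caput and −0.17 in corpus, gave 7 calls in efferent ductules, 1 in caput (for 6) and 1 in cauda. The DESeq2 Wald test gave 5 in efferent ductules and 2 in cauda, filterByExpr gave 1 in efferent ductules, and no filter gave 2 in cauda. Without the 2 libraries with initial segment transcripts the efferent ductules gave 10, with Serpina16 and Serpina1f turning from increases that were not called (1.31 and 1.26 on the log2 scale) to called decreases (−3.49 and −2.05). The causes were not tested. Leaving out 1 library gave 1 to 2 calls in testis, 0 to 3 in efferent ductules, 1 to 5 in initial segment, 3 to 8 in caput, 2 to 7 in corpus, 0 to 1 in cauda and 8 to 11 in vas deferens. Leaving out a replicate number gave 28 to 30 region calls at 3 months, 28 to 32 at 21 months, 85 to 93 steps and 4 to 9 interaction calls.

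Replicate numbers did not pair the libraries between ages, where mean correlations of same-numbered deviations lay between −0.03 and 0.06. Between regions 1 of 21 region pairs at 3 months, corpus and cauda, had every correlation over 0.1 (0.10 to 0.18), and 0 of 21 at 21 months. The highest mean correlation was 0.19 at 3 months, for caput and corpus (0.04 to 0.32). At 21 months it was 0.14, for corpus and cauda (0.05 to 0.20). With a replicate block 31 region calls at each age, 92 steps and 16 interaction calls were made. The block gave 1 age call in efferent ductules and 2 in cauda, and ended the calls of Serpine2 in caput and Serpinb6b in vas deferens. Depth limits members under 1 CPM, which held 15 of the 31 region calls at 3 months.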
